A study of Mus musculus with 18 samples.

Results

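The serum amyloid A genes *Saa1*, *Saa2*, *Saa3* and *Saa4* and the pentraxin genes *Apcs* and *Crp* were examined in the liver of mice given asparaginase. This enzyme depletes asparagine and glutamine in blood. The 6 genes are the subject here. The genes were taken by name and not by their values, and make up 6 of the 37303 genes in the expression table. RNA-Seq had been run on 18 livers in 6 groups of 3 mice: wild type (WT), *Gcn2*-/- and *Atf4*-/- mice, each injected with asparaginase (ASNase) or phosphate buffered saline (PBS). *Gcn2* (official symbol *Eif2ak4*) encodes a kinase that is activated when amino acids are scarce, and *Atf4* encodes a transcription factor that acts after it. All mice were on the C57BL/6J background, and the mutants carried homozygous deletions present in the whole body (*Atf4* by the allele tm1Tow), so that an effect of the deletion in liver cannot be told apart from its effects in other tissues. ASNase at 3 IU per gram body weight, or an equal volume of PBS, was injected intraperitoneally on 8 days, and livers were taken 7.5 h after the last injection by the labels. The labels give ages of 8 to 16 weeks, while the accompanying growth protocol gives 12 weeks as the upper age. Of the 3 mice per group, 1 was male in WT PBS, *Gcn2*-/- PBS and *Gcn2*-/- ASNase, and 2 were male in WT ASNase, *Atf4*-/- PBS and *Atf4*-/- ASNase.

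SAA1 and SAA2 are small apolipoproteins that hepatocytes secrete onto high density lipoprotein during the acute phase response, when interleukin-1, interleukin-6 and tumor necrosis factor act on the liver through NF-kB, STAT3 and C/EBP factors. SAA3 is likewise inducible and in the mouse is also made outside hepatocytes, in macrophages and adipocytes, whereas SAA4 is known as a constitutive form. Serum amyloid P component (APCS) is the main acute phase pentraxin of the mouse, and C-reactive protein (CRP), the leading one in man, is only a minor acute phase protein in mice. Pentraxins are secreted by hepatocytes, bind ligands such as phosphocholine and chromatin, and engage complement.

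The 4 *Saa* genes lie within 42.3 kb of chromosome 7 (GRCm38, GENCODE annotation): *Saa3* at chr7:46711998-46715700, *Saa4* at chr7:46727998-46732603 and *Saa1* at chr7:46740497-46742980 on the minus strand, and *Saa2* at chr7:46751790-46754313 on the plus strand. *Saa1* and *Saa2* are transcribed away from each other with their starts 8.81 kb apart. *Apcs* (chr1:172893961-172895041, minus strand) and *Crp* (chr1:172698055-172833031, plus strand) have their starts 197 kb apart on chromosome 1. The transcript models of *Saa1* and *Saa2* had 94.4% identical bases over 606 aligned positions, against 75.1 to 76.0% for either one with *Saa3* and 66.2 to 68.0% with *Saa4*. No exact stretch of 100 bases, the length of the sequencing reads, was shared by the *Saa1* and *Saa2* models (0 of 510), but reads aligned with mismatches may fit either gene, and how they divide between this pair is uncertain.

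The sequences before the start sites of the 4 *Saa* genes are shown because the genes sit together and yet separated in their levels, *Saa1* and *Saa2* from *Saa3* and these from *Saa4*. They were taken from RefSeq (GRCm38.p6), which held a promoter for all 6 genes, and run 5' to 3' on the strand of the gene from 250 to 44 bases before its RefSeq start. The RefSeq starts of *Saa2* and *Saa3* lie downstream of the GENCODE starts given above, and distances from the start below are from the RefSeq start. Capitals mark matches to the C/EBP motif TTGCNNAA on either strand. The stretches are chr7:46743024-46743230 (minus strand) for *Saa1*, chr7:46751583-46751789 (plus strand) for *Saa2*, chr7:46715720-46715926 (minus strand) for *Saa3* and chr7:46732647-46732853 (minus strand) for *Saa4*.
Saa1: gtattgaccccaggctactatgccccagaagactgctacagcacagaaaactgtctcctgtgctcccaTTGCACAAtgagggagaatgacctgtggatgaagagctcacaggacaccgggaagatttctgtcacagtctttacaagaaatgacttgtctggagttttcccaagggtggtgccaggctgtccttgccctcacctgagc
Saa2: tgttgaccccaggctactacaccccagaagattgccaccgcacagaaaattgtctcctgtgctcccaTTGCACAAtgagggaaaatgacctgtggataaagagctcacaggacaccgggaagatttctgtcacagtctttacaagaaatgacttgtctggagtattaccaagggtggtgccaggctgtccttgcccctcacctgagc
Saa3: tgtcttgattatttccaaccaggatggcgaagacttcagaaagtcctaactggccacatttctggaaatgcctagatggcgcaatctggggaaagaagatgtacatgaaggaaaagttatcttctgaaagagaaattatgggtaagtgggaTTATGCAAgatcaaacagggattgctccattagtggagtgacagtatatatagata
Saa4: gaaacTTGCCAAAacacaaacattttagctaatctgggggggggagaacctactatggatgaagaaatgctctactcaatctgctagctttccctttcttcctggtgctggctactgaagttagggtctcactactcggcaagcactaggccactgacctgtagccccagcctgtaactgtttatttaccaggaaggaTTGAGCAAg

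The 250 bases before the *Saa1* and *Saa2* starts were 95.6% identical over 249 aligned bases, and both held the C/EBP match TTGCACAA, beginning 182 and 183 bases before the start. *Saa3* had a match in the reverse orientation (TTATGCAA) 99 bases before its start, and *Saa4* had matches 245 bases (TTGCCAAA) and 52 bases (TTGAGCAA, reverse) before its start. Such a match was found in 9.56% of the 32851 promoters of that length, and in no window of *Apcs* or *Crp*. The STAT motif TTCNNNGAA, in 7.02% of promoters, was found in *Apcs* alone of the 6 genes (TTCTAGGAA, 244 bases before the start), and TATAAA, in 12.4% of promoters, in *Crp* alone, 31 bases before the start. Each site was searched only in the form given, so other forms of it may be present. The NF-kB motif in the form GGGNNTTTC (3.72% of promoters) and the ATF4 response element as TGATGNAA (3.45%) were absent from all 6 windows. These motifs were searched on both strands and did not overlap one another in the 6 windows. They describe letters in a window and not binding.

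Expression was measured as FPKM, a count of fragments scaled by the depth of the library and the length of the transcript, so that levels of different genes can be set side by side. The table holds a single FPKM per gene and group, estimated by Cuffdiff from the 3 libraries together, with the lower and upper bound of an interval, given below in square brackets, and a status. No value per mouse was available for use here, so no test was run and no difference has a replicate check. Groups were compared as the difference of log2(FPKM + 0.1), a scale on which changes of weakly expressed genes come out slightly too small. Only genes with status OK and nonzero FPKM in each of the groups compared, and with at least 1 of these values above 3 FPKM, were considered. A call required a log2 difference of more than 1.5 in size together with intervals that did not overlap.

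In the series as a whole, 45 genes lacked an estimate in at least 1 group, and FPKM carries no read counts, so that precision is known from the intervals only. The hepatocyte genes *Hnf4a* (145 to 213 FPKM) and *Asgr1* (357 to 451 FPKM) were present in every group, while *Alb*, the most familiar hepatocyte mRNA, had no estimate in any. *Atf4* stood at 32.3 and 29.3 FPKM in *Atf4*-/- livers and at 50.4 to 68.1 in the other groups, with overlapping intervals under each treatment. *Eif2ak4* stood at 2.31 and 2.96 FPKM in *Gcn2*-/- livers and at 2.19 to 3.14 elsewhere. A value for the whole gene does not show which exons were read, so these levels do not check the deletions. The study itself reports read density plots that lacked an exon of *Gcn2* in *Gcn2*-/- mice and *Atf4* in *Atf4*-/- mice. It also measured *Atf4* by RT-qPCR. In whole liver, a change in the number of cells of a type and a change in RNA per cell cannot be told apart.

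*Saa1* and *Saa2*, the inducible acute phase forms of SAA, had levels close to each other in every group with an estimate. *Saa1* FPKM was 70.9 [39.3 to 103] in WT PBS, 72.2 [38.9 to 106] in WT ASNase, 3784 [0 to 11306] in *Gcn2*-/- PBS, 3622 [0 to 8547] in *Atf4*-/- PBS and 15560.4 [0 to 43179.5] in *Atf4*-/- ASNase. *Saa2* FPKM was 56.9 [31.1 to 82.7], 41.6 [22.3 to 60.9], 4273 [0 to 12331], 3210.2 [0 to 7558] and 13079 [0 to 37165] in the same groups. In *Gcn2*-/- ASNase livers neither gene had an estimate: both were listed at 0 with the status HIDATA, which Cuffdiff gives to a locus with too many fragments to process, and this 0 is not a level. The *Saa1* and *Saa2* levels were thus low in both WT groups and above any WT interval in every mutant group with an estimate. In *Atf4*-/- ASNase livers *Saa1* had rank 3 and *Saa2* rank 4 among the 37283 genes with an estimate, against ranks 1177 and 1395 of 37268 in WT PBS.

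Every mutant value of this pair came with an interval that began at 0. The distance from the *Saa1* value to its upper bound was 199% of the value in *Gcn2*-/- PBS, 136% in *Atf4*-/- PBS and 177% in *Atf4*-/- ASNase, against 44.6 and 46.1% in the WT groups. Wide intervals were common among abundant genes: over an FPKM of 1000 the median distance was 84.3% of the value in *Gcn2*-/- PBS (93 genes) and 78.4% in *Atf4*-/- PBS (83 genes), and 28.0 and 24.1% of those genes had a lower bound of 0. The *Saa1* and *Saa2* intervals were wider than these medians. Hence a log2 difference from WT under PBS of 5.74 for *Saa1* and 6.23 for *Saa2* in *Gcn2*-/- livers, and of 5.67 and 5.82 in *Atf4*-/- livers, was not called. Under ASNase the differences between *Atf4*-/- and WT livers were 7.75 for *Saa1* and 8.29 for *Saa2*, with overlapping intervals as well.

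*Saa3*, the form also made by macrophages, was the lowest of the 6 genes in both WT groups and covered the widest range of the 4 genes with an estimate in every group. Its FPKM was 17.7 [8.00 to 27.4] in WT PBS, 12.2 [4.31 to 20.1] in WT ASNase, 876 [57.6 to 1694] in *Gcn2*-/- PBS, 12427 [0 to 29543] in *Gcn2*-/- ASNase, 23.2 [11.6 to 34.9] in *Atf4*-/- PBS and 672 [301 to 1043] in *Atf4*-/- ASNase. Here the mutants parted under PBS, where the *Gcn2*-/- interval lay above that of *Atf4*-/- livers, which overlapped WT. In the order of its levels, the step from *Atf4*-/- PBS to *Atf4*-/- ASNase was the only one between neighbouring groups with separate intervals. *Saa3* was called higher in *Gcn2*-/- than in WT livers under PBS (log2 difference 5.62), where the bounds allow a fold between 2.10 and 212. It was called higher after ASNase in *Atf4*-/- livers (4.85, 8.63- to 90.0-fold) and in *Atf4*-/- against WT livers under ASNase (5.77, 15.0- to 242-fold). The level of 12427 in *Gcn2*-/- ASNase, rank 3 among 37285 genes with an estimate, had an interval from 0, so the differences of 3.83 from *Gcn2*-/- PBS and 9.98 from WT ASNase were not called.

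*Saa4*, the constitutive form, covered a narrower range. Its FPKM was 129 [67.1 to 190] in WT PBS, 86.9 [49.0 to 125] in WT ASNase, 119 [63.9 to 174] in *Gcn2*-/- PBS, 571 [232 to 910.2] in *Gcn2*-/- ASNase, 288 [109 to 468] in *Atf4*-/- PBS and 243 [65.5 to 420] in *Atf4*-/- ASNase. The *Gcn2*-/- ASNase value stood above the others, with an interval clear of both WT groups and of *Gcn2*-/- PBS but not of the *Atf4*-/- groups. *Saa4* was called higher after ASNase in *Gcn2*-/- livers (log2 difference 2.26, 1.33- to 14.2-fold) and in *Gcn2*-/- against WT livers under ASNase (2.71, 1.86- to 18.6-fold). In *Atf4*-/- livers it differed from WT by 1.16 under PBS and 1.48 under ASNase, both under the fold limit.

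*Apcs*, encoding the main acute phase pentraxin of the mouse, had an FPKM of 103 [59.0 to 147] in WT PBS, 108 [60.4 to 156] in WT ASNase, 278 [131 to 426] in *Gcn2*-/- PBS, 2133 [680.0 to 3586] in *Gcn2*-/- ASNase, 275 [120 to 431] in *Atf4*-/- PBS and 1042 [334 to 1749.8] in *Atf4*-/- ASNase. The WT values were the lowest, the mutant PBS values were next and nearly equal, and the mutant ASNase values were the highest. *Apcs* was called higher after ASNase in *Gcn2*-/- livers (log2 difference 2.94, 1.60- to 27.4-fold). It was also called higher than in WT under ASNase in both *Gcn2*-/- livers (4.30, 4.36- to 59.4-fold) and *Atf4*-/- livers (3.27, 2.14- to 29.0-fold). The ASNase difference of 1.92 in *Atf4*-/- livers had overlapping intervals, and the PBS differences from WT of 1.44 (*Gcn2*-/-) and 1.42 (*Atf4*-/-) were under the fold limit.

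*Crp* was not called in any of the 7 comparisons of groups. Its FPKM was 266 [138 to 394] in WT PBS, 218 [116 to 319] in WT ASNase, 264 [134 to 394] in *Gcn2*-/- PBS, 636 [275 to 998] in *Gcn2*-/- ASNase, 342 [171 to 513] in *Atf4*-/- PBS and 236 [111 to 361] in *Atf4*-/- ASNase. All 6 intervals overlapped between neighbours in the order of levels, and *Crp* was the most abundant of the 6 genes in both WT groups. The value in *Gcn2*-/- ASNase was the highest, with a log2 difference of 1.27 from *Gcn2*-/- PBS and of 1.55 from WT ASNase.

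**Figure D1:**
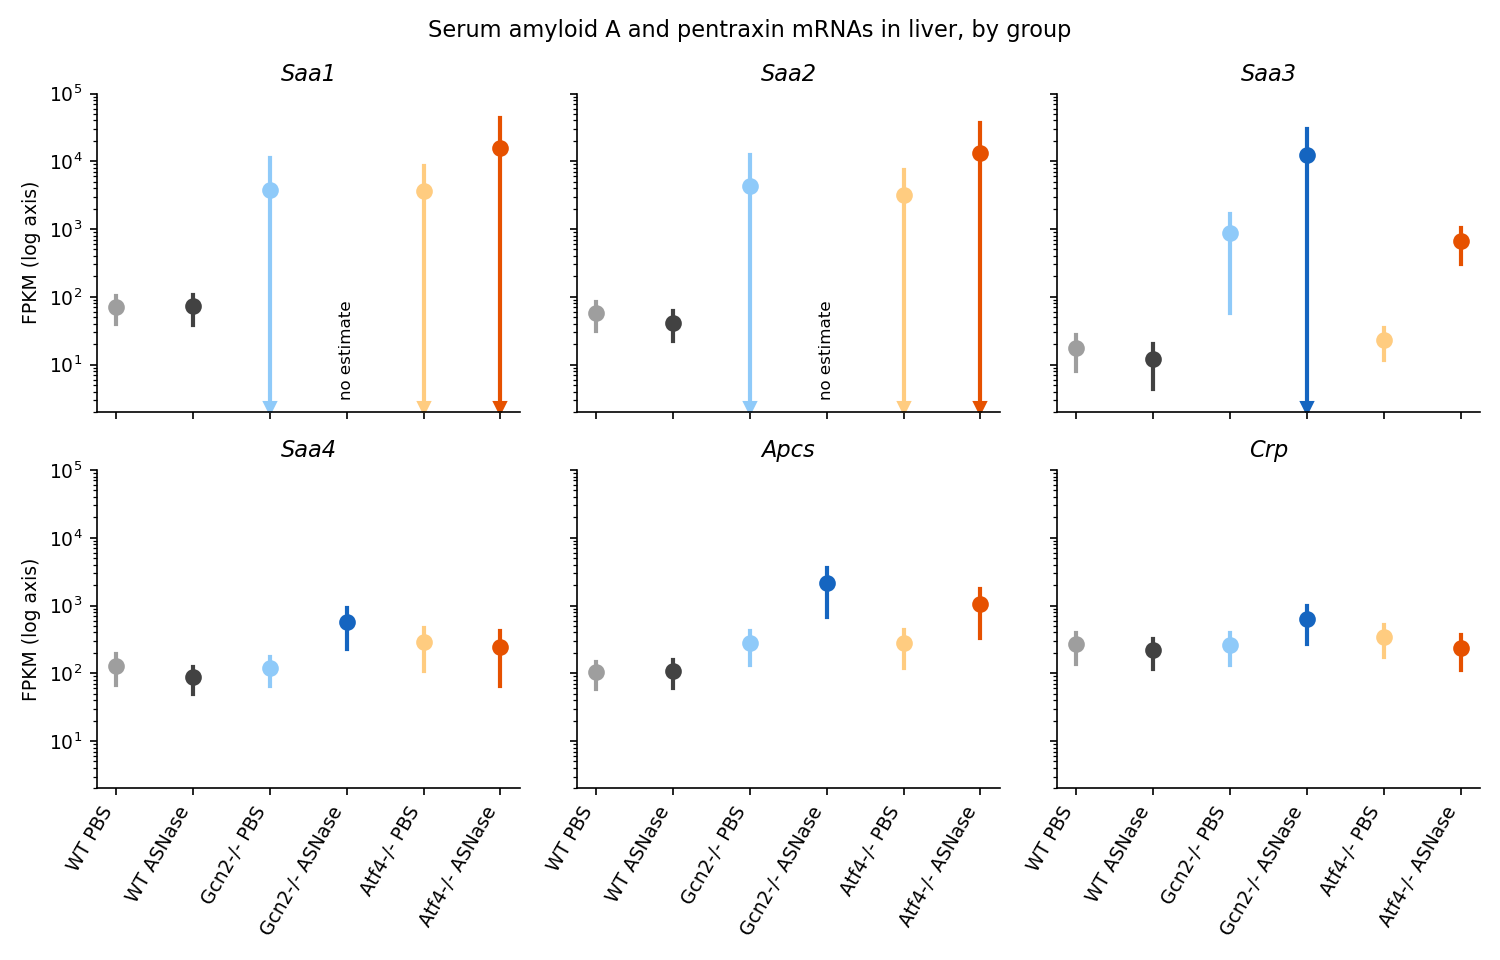
FPKM (log axis) of each of the 6 genes in the 6 groups, 1 value per group from 3 mice, with the deposited interval as a line and a downward arrow where its lower bound is 0. *Saa1* and *Saa2* lie between 41.6 and 72.2 in WT livers and between 3210.2 and 15560.4 in the mutant groups with an estimate, *Saa3* in *Atf4*-/- PBS lies beside WT at 23.2, and *Crp* stays between 218 and 636.

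The first question of the design was what ASNase did in each strain. In WT livers 0 of the 6 genes were called or passed the fold limit, and the log2 differences ran from -0.57 (*Saa4*) to 0.07 (*Apcs*), with a median of -0.37 against -0.0065 over all 9084 genes compared. For reference, 0.881% of those genes were called and 1.48% passed the fold limit. In *Gcn2*-/- livers 4 of the 6 genes had both values: *Saa4* and *Apcs* were called, against 3.69% of 9218 genes, and *Saa3* also passed the fold limit, which makes 3 of 4 against 6.58%. In *Atf4*-/- livers all 6 genes could be compared: *Saa3* was called, against 7.37% of 9485 genes, and *Saa1* (2.10), *Saa2* (2.03) and *Apcs* (1.92) also passed the fold limit, 4 of 6 against 12.2%. The median difference of the genes compared was 2.60 in *Gcn2*-/- livers (all genes 0.017) and 1.97 in *Atf4*-/- livers (all genes 0.078). *Saa4* and *Crp* in *Atf4*-/- livers had differences of -0.25 and -0.53.

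The next question was how the mutants differed from WT. Under PBS, *Saa3* was the single gene of the 6 called in *Gcn2*-/- livers, where 1.04% of 8920 genes were called, and *Saa1*, *Saa2* and *Saa3* passed the fold limit (3 of 6, against 2.03%). In *Atf4*-/- livers under PBS 0 of 6 were called, where 1.12% of 9039 genes were, and *Saa1* and *Saa2* passed the fold limit (2 of 6, against 1.99%). Under ASNase, *Saa4* and *Apcs* were called in *Gcn2*-/- livers, 2 of the 4 genes with both values against 4.41% of 9423 genes, and all 4 passed the fold limit (7.67% of all genes did). In *Atf4*-/- livers under ASNase *Saa3* and *Apcs* were called, 2 of 6 against 8.25% of 9577 genes, and *Saa1*, *Saa2*, *Saa3* and *Apcs* passed the fold limit (4 of 6 against 13.3%). None of the 6 genes was called lower in any of the 7 comparisons. The comparisons of both mutants under 1 treatment share the WT group, and each mutant ASNase or PBS group serves in a pair of comparisons, so these counts are not independent of one another.

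**Figure D2:**
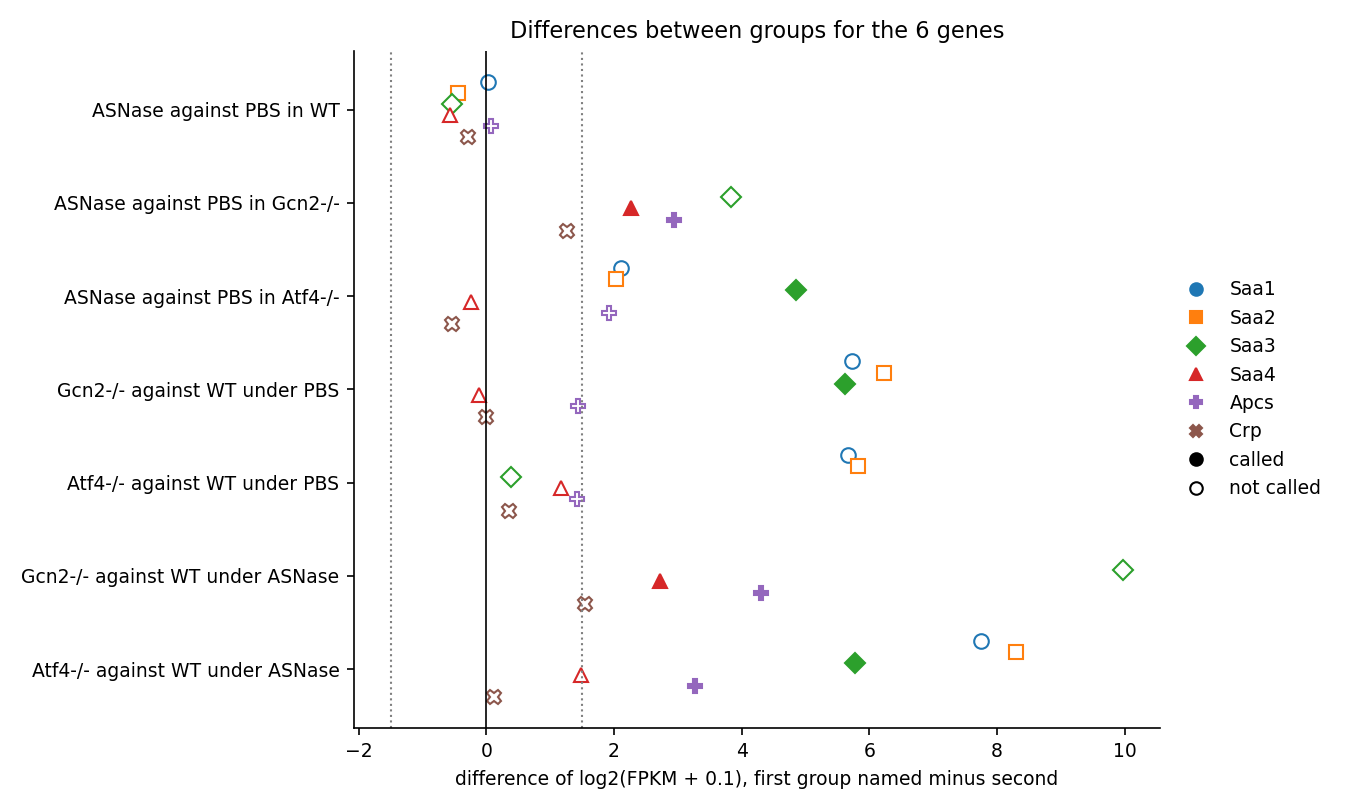
Difference of log2(FPKM + 0.1) for the 6 genes in 7 comparisons, with filled symbols for called genes, open symbols for the others and dotted lines at the fold limit of 1.5. The WT response to ASNase lies near 0 for all 6 genes, and the largest differences, such as 9.98 for *Saa3*, are open because an interval reaches 0.

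Whether strains differed in their response to ASNase was then asked directly. The ASNase difference of a strain was subtracted from that of another, and a gene was called when the result was over 1.5 in size and over its error, the root of the summed squares of the 4 interval half-widths on the log2 scale. Between *Gcn2*-/- and WT livers the response differed for all 4 genes with estimates, where 5.11% of 9523 genes were called: by 4.36 ± 2.70 for *Saa3*, 2.83 ± 1.43 for *Saa4*, 2.86 ± 1.53 for *Apcs* and 1.56 ± 1.45 for *Crp*. The *Crp* excess over its error was small. The *Saa3* error takes its interval as even on both sides, but the *Gcn2*-/- ASNase interval of *Saa3* begins at 0, so that its bounds set no lower limit to this response, and 3 of the 4 genes remain when all bounds have to be above 0. Between *Atf4*-/- and WT livers the response differed for *Saa3* (5.38 ± 1.63) and *Apcs* (1.84 ± 1.55), 2 of 6 genes where 7.44% of 9698 were called. For *Saa1* (2.08 ± 3.36) and *Saa2* (2.48 ± 3.43) the error was larger than the difference, and for *Saa4* (0.32 ± 1.67) and *Crp* (-0.25 ± 1.43) the difference was under the limit. Between the mutants, the response of *Saa4* was lower in *Atf4*-/- than in *Gcn2*-/- livers by -2.51 ± 1.76 and that of *Crp* by -1.80 ± 1.51, 2 of 4 genes where 4.28% of 9684 were called. The responses of *Saa3* (1.02 ± 2.63) and *Apcs* (-1.02 ± 1.78) were not called different between the mutants.

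**Figure D3:**
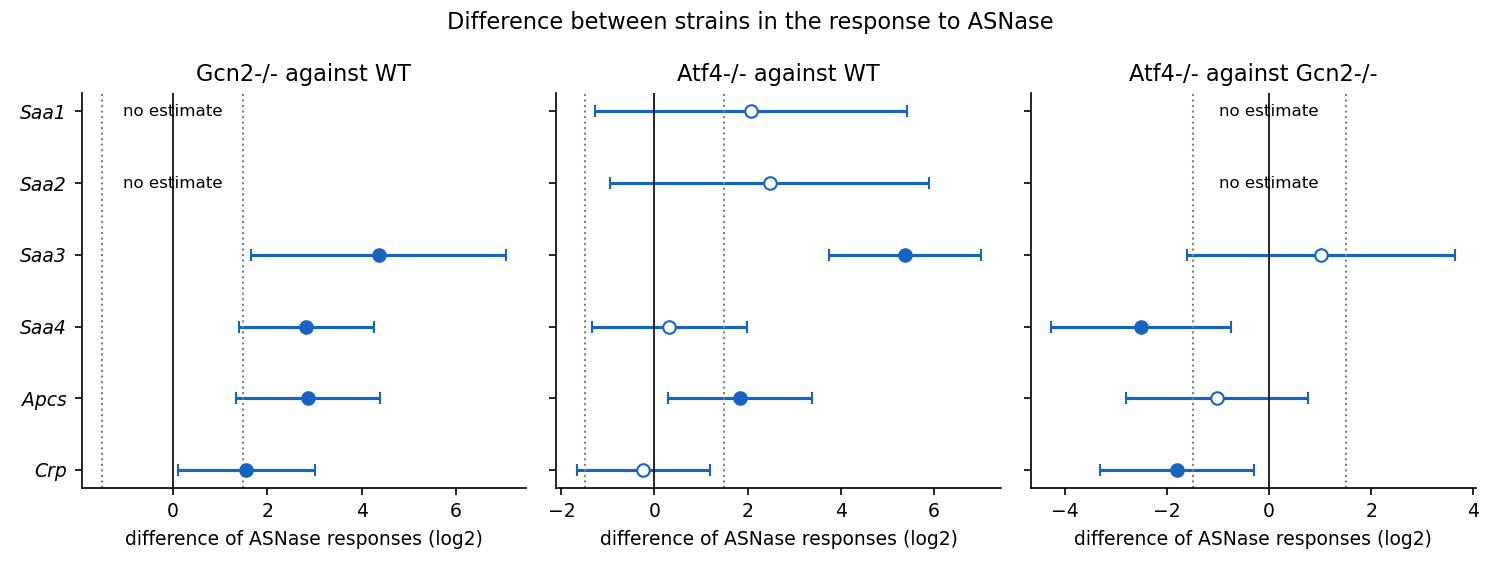
Difference between strains of the ASNase response (log2) of the 6 genes, with error bars of the combined interval half-widths, filled points for called genes and dotted lines at 1.5. *Saa3* and *Apcs* are called against WT in both mutants, the *Saa3* bars with *Gcn2*-/- livers being drawn even although that interval begins at 0, and of the 3 comparisons *Saa4* and *Crp* are called in the pair that includes *Gcn2*-/- livers; *Saa1* and *Saa2* have no estimate in *Gcn2*-/- ASNase.

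Levels within a group showed how the family was composed. The ratio of *Saa1* to *Saa2* FPKM stayed between 0.886 and 1.74 in the 5 groups with an estimate, while *Saa1* itself varied from 70.9 to 15560.4. The ratio of *Saa3* to *Saa1* was 0.249 in WT PBS, 0.169 in WT ASNase and 0.232 in *Gcn2*-/- PBS, but 0.00641 in *Atf4*-/- PBS and 0.0432 in *Atf4*-/- ASNase. *Saa3* was thus a smaller share of the family in both *Atf4*-/- groups, although each ratio carries the wide intervals given above. The ratio of *Saa3* to *Saa4* was 0.137 in WT PBS, 7.36 in *Gcn2*-/- PBS, 0.0806 in *Atf4*-/- PBS, 21.8 in *Gcn2*-/- ASNase and 2.77 in *Atf4*-/- ASNase. Of the pentraxins, *Apcs* was below *Crp* in WT livers, at a ratio of 0.386 under PBS and 0.497 under ASNase. The ratio was 1.05 in *Gcn2*-/- PBS and 0.806 in *Atf4*-/- PBS, and 3.35 and 4.41 after ASNase in *Gcn2*-/- and *Atf4*-/- livers. *Apcs* thus had the higher estimate in both mutant ASNase groups, but the intervals of *Apcs* and *Crp* overlapped in every group. These ratios were not tested.

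Other genes of the acute phase response were counted by list. Among 22 other reactants known to rise, 18 could be compared after ASNase in *Gcn2*-/- livers: 4 were called higher (*Orm3*, *Cd14*, *Steap4* and *Mt2*) and 14 passed the fold limit upward, with a median of 2.68. Of all genes in that comparison, 144 of 9218 were called higher and 278 passed the limit upward. In *Atf4*-/- livers 16 could be compared, the same 4 were called higher, and 15 passed the fold limit upward, with a median of 2.64, where 260 of all 9485 genes were called higher and 496 passed the limit upward. In WT livers 2 of 20 were called higher, the metallothioneins *Mt1* (2.99) and *Mt2* (3.47), with a median of -0.15, where 69 of all 9084 genes were called higher. As for *Saa1* and *Saa2*, abundant reactants lacked an estimate: 4 of the 22 in *Gcn2*-/- ASNase and 6 in *Atf4*-/- ASNase, among them *Hp* (haptoglobin), *Hpx* (hemopexin) and *C3* (complement) in both. Lipocalin *Lcn2*, another secreted reactant, stood at 10.1 and 10.5 FPKM in WT livers, at 472 and 9989.7 in *Gcn2*-/- and 151 and 8691 in *Atf4*-/- livers under PBS and ASNase.

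Among 11 proteins known to fall in the acute phase, 1 of 9 compared was called lower after ASNase in each mutant and 0 in WT livers. It was *Serpina6*, encoding the corticosteroid carrier transcortin, whose log2 difference was -5.53 in *Gcn2*-/- livers and -3.19 in *Atf4*-/- livers. Of all genes compared, 196 of 9218 were called lower in *Gcn2*-/-, 439 of 9485 in *Atf4*-/- and 11 of 9084 in WT livers. A count of 1 or 0 called among 9 is too small to set this list apart from all genes. The fold limit was passed downward by 3 of 9 in each mutant and 0 of 9 in WT livers. These were *Serpina6*, *Apoa1* and *Ttr* in *Gcn2*-/- and *Serpina6*, *Ttr* and *Apoa2* in *Atf4*-/- livers. Of all genes, 329 of 9218 in *Gcn2*-/-, 664 of 9485 in *Atf4*-/- and 24 of 9084 in WT livers passed it downward. The list medians were -0.34 in WT, -0.81 in *Gcn2*-/- and -0.67 in *Atf4*-/- livers. *Apoa1*, the main apolipoprotein of the particle that SAA joins, stood at 6291 and 4386 FPKM in WT, 8602 and 2657 in *Gcn2*-/- and 5980.0 and 2757 in *Atf4*-/- livers under PBS and ASNase. It was not called, its intervals overlapping in *Gcn2*-/- livers where it passed the fold limit.

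Among the inducers of the SAA pathway, 4 cytokine mRNAs were near the lower end of the scale. *Il6* was at most 0.680 FPKM, *Tnf* at most 1.66, *Osm* at most 0.0314 and *Lif* at most 0.132 in any group, so none of them entered a comparison. *Il1b* stood at 2.11 and 1.31 FPKM in WT, 2.29 and 11.9 in *Gcn2*-/- and 4.96 and 6.08 in *Atf4*-/- livers under PBS and ASNase, and *Il1a* at 2.28 and 9.10 in *Gcn2*-/- livers. Of 13 cytokines and receptors, 9 could be compared after ASNase in *Gcn2*-/- livers and 5 were called higher (*Il1a*, *Il1b*, *Il1r1*, *Il1rn* and *Osmr*), against 3.69% of all genes called in either direction. After ASNase in *Atf4*-/- livers 3 of 8 were called higher (*Il1r1*, *Il1rn* and *Osmr*), against 7.37%. In WT livers 0 of 6 were called, which is near the 0.881% of all genes. *Il1r1*, the signalling receptor of interleukin-1, differed by 3.48 in *Gcn2*-/- livers and by 2.57 in *Atf4*-/- livers. Of 15 genes of STAT3, C/EBP and NF-kB signalling, the same 5 (*Socs3*, *Cebpd*, *Nfkb2*, *Relb* and *Nfkbiz*) were called higher after ASNase in both mutants, where all 15 could be compared, and 0 of 12 in WT livers. Of all genes compared, 144 of 9218 were called higher in *Gcn2*-/-, 260 of 9485 in *Atf4*-/- and 69 of 9084 in WT livers. The 0 of 12 in WT livers is near that share. *Socs3*, a feedback inhibitor induced by STAT3, differed by 2.42 and 2.95 and *Cebpd* by 2.90 and 2.43 in *Gcn2*-/- and *Atf4*-/- livers. *Stat3* (1.41 and 1.43) and *Cebpb* (1.44 and 0.30) were under the limit in both. In *Gcn2*-/- livers *Cebpb* stood at 38.0 [18.3 to 57.7] FPKM under PBS and 103 [50.0 to 157] under ASNase, with overlapping intervals. The study itself, by its own test, reports *Cebpb* as significantly raised after asparaginase in *Gcn2*-/- livers alone. So the lack of a call here does not show that *Cebpb* was unchanged there.

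**Figure D4:**
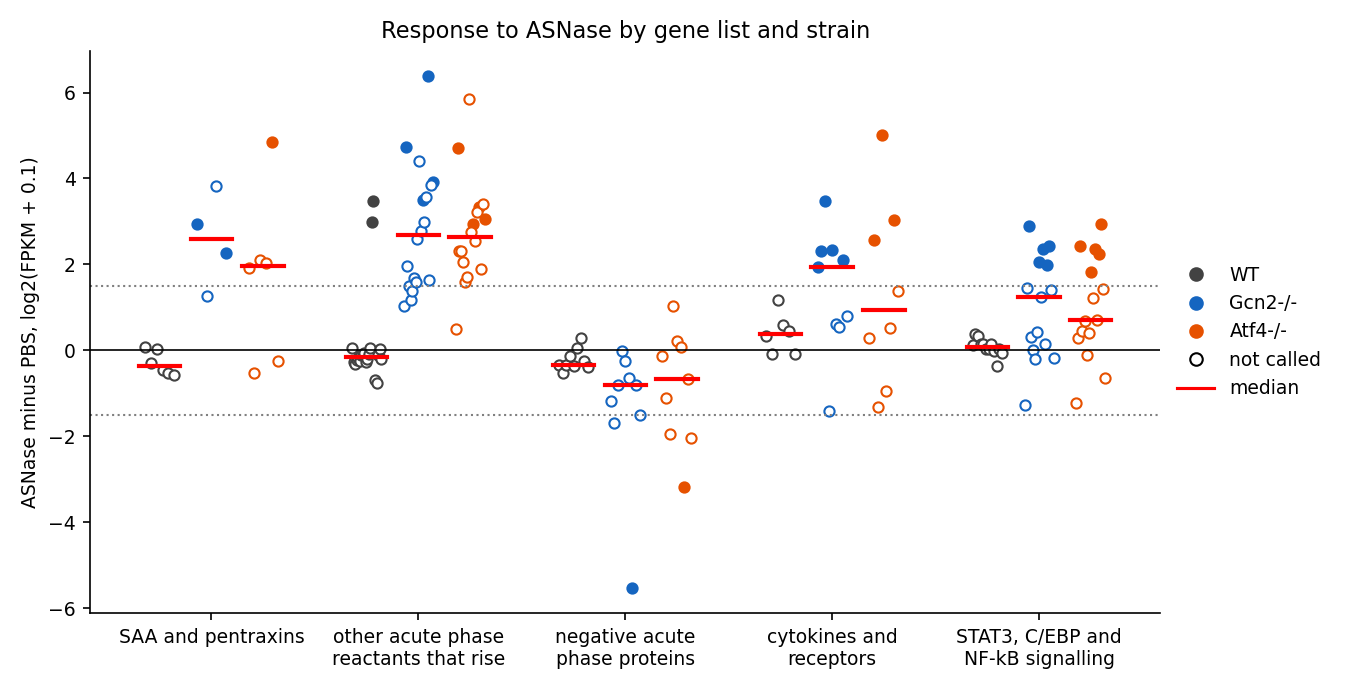
ASNase minus PBS difference of log2(FPKM + 0.1) for each gene compared, by list and strain, with filled points for called genes and red lines for list medians. The WT medians of the 5 lists lie between -0.37 and 0.38, while in *Gcn2*-/- livers the medians are 2.60 for the SAA and pentraxin genes and 2.68 for the other reactants that rise.

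Reported receptors and partners of the 6 proteins were counted next. Of 13 genes listed for SAA, 10 could be compared after ASNase in *Gcn2*-/- livers and *Fpr1*, *Fpr2* and *Tlr2* were called higher, and 9 in *Atf4*-/- livers, where *Tlr2* and *Cd36* were called higher. Over all genes, 3.69% were called in *Gcn2*-/- and 7.37% in *Atf4*-/- livers, in either direction. Of 12 other pentraxins and pentraxin partners 6 could be compared in each comparison and 0 were called. Between 0.881 and 8.25% of all genes were called in a comparison, so 0 of 6 is near that share and no result about these partners. The other pentraxin genes *Ptx3*, *Ptx4*, *Nptx1*, *Nptx2* and *Nptxr* were at most 0.145 FPKM in every group, so *Apcs* and *Crp* were the pentraxin mRNAs of these livers.

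Markers of cells other than hepatocytes were read because SAA3 has such sources. The summed FPKM of 11 neutrophil markers was between 1.73 and 16.9 and lowest in *Gcn2*-/- ASNase, where *Saa3* was highest. *Ly6g* was at 0 in 5 groups. The 11 Kupffer cell and macrophage markers summed to 333 and 182 FPKM in WT, 219.8 and 362 in *Gcn2*-/- and 389 and 223 in *Atf4*-/- livers under PBS and ASNase, and the higher sum after ASNase in *Gcn2*-/- livers came from *Marco* and *Lyz2* (54.1 and 134 FPKM under PBS and ASNase): without them it was 157 and 110.3, beside 243 and 138 in WT and 279 and 117 in *Atf4*-/- livers. The scavenger receptor *Marco* was called higher after ASNase in both mutants, at 118 FPKM in *Gcn2*-/- and 67.3 in *Atf4*-/- ASNase livers against 3.45 in WT ASNase, while *Clec4f*, a Kupffer cell gene, stood at 15.9, 30.1 and 52.4 in these groups. The 8 adipocyte markers summed to 1789 and 1226 FPKM in WT, 739.5 and 94.9 in *Gcn2*-/- and 662 and 41.2 in *Atf4*-/- livers, most of it *Car3*, which hepatocytes also express; without *Car3* the sums were 58.4 and 65.6, 22.1 and 79.0, and 22.2 and 39.0. After ASNase in *Gcn2*-/- livers *Fabp4* was called higher (19.3 and 74.8 FPKM) and *Car3* lower, of 3 adipocyte markers compared, against 3.69% of all genes. *Fabp4* was most of the sum of 79.0. In *Atf4*-/- livers *Car3* was called lower, of 2 compared, against 7.37%. Against WT, *Cfd* was called lower in *Gcn2*-/- livers under PBS and ASNase and in *Atf4*-/- livers under PBS. *Car3* was called lower than WT in both mutants under ASNase. In these comparisons with WT, 1.04 to 8.25% of all genes were called. *Adipoq* was at most 1.96 FPKM. The 8 skeletal muscle markers summed to 807 and 1158 FPKM in WT, 5.78 and 8.85 in *Gcn2*-/- and 65.0 and 143 in *Atf4*-/- livers, so muscle marker mRNA was higher in WT than in the mutant groups and moved with every comparison against WT. The part of these cell types in the levels of the 6 genes was not tested. The hepatocyte list, 9 of 10 genes with an estimate, summed to 19616 and 16679.7 FPKM in WT, 21265 and 11528 in *Gcn2*-/- and 18196 and 9210.1 in *Atf4*-/- livers under PBS and ASNase. Its most abundant genes under PBS, *Apoa1*, *Ttr* and *Cyp2e1*, were lower after ASNase in both mutants, and *Apoa1* and *Ttr* are also listed above as falling. *Ttr* stood at 4950 and 1749 FPKM in *Gcn2*-/- and 3541 and 854 in *Atf4*-/- livers. *Asgr1* stood at 451 and 408 and at 429 and 419 there, and *Hnf4a* at 149 and 145 and at 165 and 213. *Tat* was higher after ASNase in both mutants, so not all genes of the list fell with the sum. None of the 9 hepatocyte genes was called (0 in each of the 7 comparisons), and 2 passed the fold limit downward after ASNase in each mutant, with 1 (*Tat*) passing it upward in *Gcn2*-/- livers. Between 0.881 and 8.25% of all genes were called in a comparison, so 0 of 9 is near that share and no result about these genes. Of all genes, 329 of 9218 passed the limit downward and 278 upward in *Gcn2*-/- livers, and 664 of 9485 downward in *Atf4*-/- livers.

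**Figure D5:**
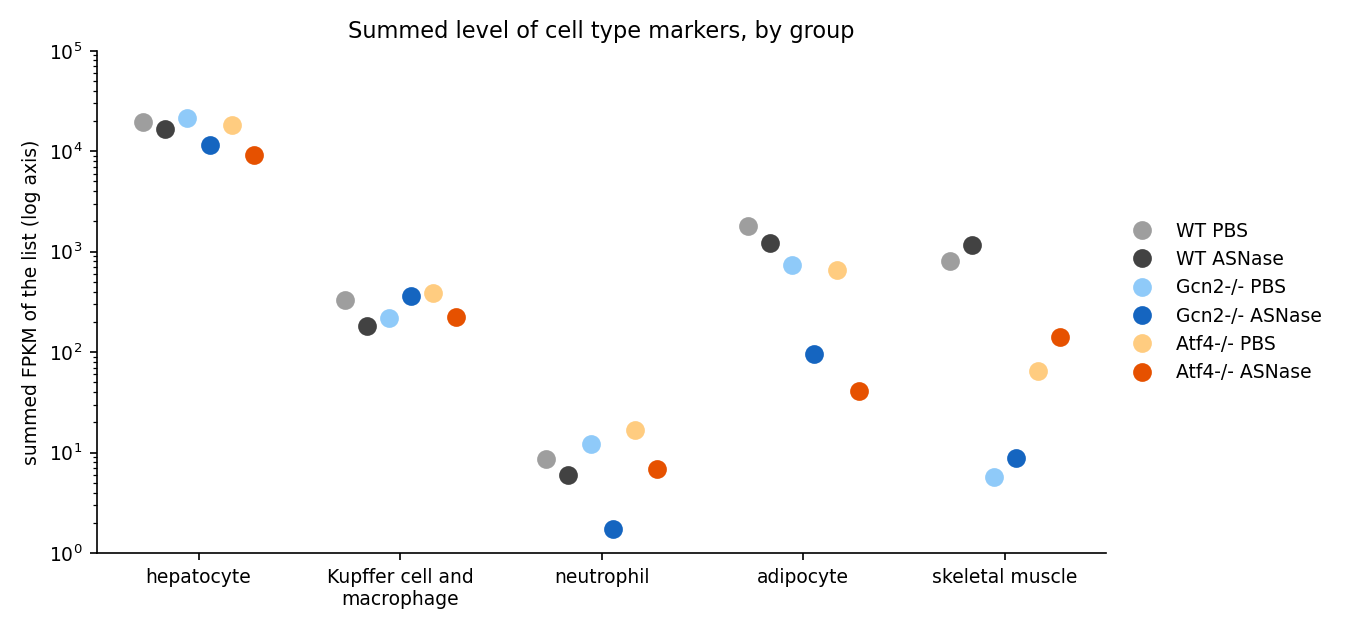
Summed FPKM (log axis) of 5 lists of cell type markers in the 6 groups, 1 point per group. Neutrophil markers stay at or under 16.9 in all groups, and muscle markers are at 807 and 1158 in WT and at most 143 in the mutant groups.

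Finally, the genes whose levels over the 6 groups were most like each member were found by Pearson correlation of log2(FPKM + 0.1) among 9815 genes with an estimate above 0 in all groups and over 3 in any. With 6 points that share libraries these are descriptions. *Saa1* and *Saa2* lacked a group and were not ranked. *Saa3* was most like *Ssbp1* (r = 0.998), *Sept2* (0.996), *Cdc123* (0.994), *Helq* and *Mid1* (0.989 each), of which *Mid1* alone covered a wide range, from 1.12 in WT PBS to 22.0 FPKM in *Gcn2*-/- ASNase. *Saa4* was most like *Il1b* (0.983), *Cd300e* (0.979), *Siglece* (0.973), *BC037034* (0.972) and *Csf1* (0.971). *Apcs* was most like *D19Ertd386e* and *Stap2* (0.998 each), *Dap* (0.994), *Lrp1* (0.993) and *Paip2b* (0.992), with *Stap2* going from 24.1 in WT PBS to 66.8 in *Gcn2*-/- ASNase. *Crp* was most like *2810407C02Rik* (0.987), *Hip1r* (0.985), *Ero1lb* and *Herc6* (0.982 each) and *Dbnl* (0.980).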

How the data were processed

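Liver RNA-Seq of 18 mice in 6 groups of 3 was used. Per the labels and the methods of the study, the authors prepared poly-A libraries, aligned the single-end reads by TopHat (genome build mm10) and quantified genes with Cuffdiff. The authors deposited FPKM values, 1 per gene and group, with interval bounds and a status. The bounds are other values on the FPKM scale, also deposited by the authors. Each column of values belonged to a known group, with 0 left outside. FPKM holds no counts, so reads per gene were unknown and precision came from the intervals. The study reports the mapped reads of each library, which were not used here. Samples were grouped by the labels. Linear tests need values per library and were not run.

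Differences, intervals and responses were computed with Python 3.11.15, pandas 2.3.3 and NumPy 2.4.6, and sequences were aligned with Biopython 1.88. The pseudocount was 0.1, the FPKM limit 3 and the log2 limit 1.5, the last pair after the study's methods. A gene listed at 0 was left out of a comparison. Alternatives changed the pseudocount, the FPKM limit, the fold limit, the condition on intervals, the scaling and the use of zeros. The rules were tested on simulated data. Every member is described in every group. From each list the counts are given, with at most 3 genes of largest change per comparison, the cytokine inducers, *Stat3*, *Socs3*, *Cebpb* and *Cebpd*, and the genes called in a count of 5 or fewer. *Lcn2*, *Apoa1*, *Clec4f*, *Car3*, *Adipoq*, *Ly6g*, *Lyz2*, *Hp*, *Hpx* and *C3* were in part named after their values were seen. Some genes are not reported here. The members and lists were chosen with earlier results of these data known.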

Additional observations from a re-analysis of the deposited data

Results flagged for a closer look

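The response to ASNase differed between strains by more than its combined interval error for 8 pairs of a gene and a comparison, on group values without a replicate check. Against WT livers, the log2 response in *Gcn2*-/- livers was higher by 4.36 for *Saa3* (whose *Gcn2*-/- ASNase interval begins at 0 and sets no lower limit), 2.83 for *Saa4*, 2.86 for *Apcs* and 1.56 for *Crp*. The log2 response in *Atf4*-/- livers was higher than in WT by 5.38 for *Saa3* and 1.84 for *Apcs*. The response in *Atf4*-/- minus that in *Gcn2*-/- livers was -2.51 for *Saa4* and -1.80 for *Crp*.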

How the results depend on the processing

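The log2 differences of the 6 genes moved little under both other pseudocounts and under median-ratio scaling (scaling factors 0.980 to 1.02). All 114 of 114 values shifted by less than their combined interval error (largest shift 0.10), and 0 called differences were reversed. Differences near 0 changed sign under median-ratio scaling. They were *Saa1* after ASNase in WT livers (0.025 to -0.0054) and *Crp* in *Gcn2*-/- against WT livers under PBS (-0.011 to 0.0043). Of 90 counts of called members under alternatives, 83 stayed within 1.5 times the reported count. The condition on intervals moved the other 7. With the fold limit only, the number of members called was 4 for ASNase in *Atf4*-/- livers, 3 for *Gcn2*-/- against WT under PBS, 2 for *Atf4*-/- against WT under PBS, 4 for *Gcn2*-/- against WT under ASNase, 4 for *Atf4*-/- against WT under ASNase and 4 for the response of *Atf4*-/- against WT livers. With a combined interval in place of separate ones it was 2 for ASNase in *Atf4*-/- livers. Over all genes, the calls for ASNase in WT livers were 80 as reported, 124 without the limit on low FPKM and 179 with genes listed at 0. Under PBS they were 93, 144 and 192 for *Gcn2*-/- and 101, 153 and 182 for *Atf4*-/- against WT livers. With the fold limit only they were 134 (ASNase in WT), 607 in place of 340 (ASNase in *Gcn2*-/-), 1160 in place of 699 (ASNase in *Atf4*-/-), 181 and 180 (both mutants under PBS), and 723 in place of 416 and 1276 in place of 790 (*Gcn2*-/- and *Atf4*-/- under ASNase). No paired analysis was possible because the table holds no values per library; for the same reason the replicate block and leaving out each replicate were not run. The combined interval is already the error of a response, so it gave no other value there. A rule chosen after seeing the data, that all 4 lower bounds of a response be above 0, left 3, 2 and 2 members called for *Gcn2*-/- against WT, *Atf4*-/- against WT and *Atf4*-/- against *Gcn2*-/- livers; it removed *Saa3* from the first. Interval width limits the reading of abundant genes most, and *Saa1* and *Saa2* most of the 6.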

Other observations

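Genes next to the 2 loci are given as a description. Within 100 kb of the *Saa* block, 9 other genes were measured, 5 of them over an FPKM of 3 in some group, and 0 were called in any of the 7 comparisons. *Saal1*, named for its likeness to the serum amyloid A genes, stood at 2.49 and 2.15 FPKM in WT, 2.84 and 3.89 in *Gcn2*-/- and 2.40 and 3.88 in *Atf4*-/- livers under PBS and ASNase. *Ldha*, lactate dehydrogenase A, stood at 434 and 321 in WT, 516 and 1170 in *Gcn2*-/- and 519 and 410 in *Atf4*-/- livers. Its log2 difference of 1.87 between *Gcn2*-/- and WT livers under ASNase was over 1.5 in size but was not called. Of 6 genes within 100 kb of the pentraxin genes, 2 were over an FPKM of 3 in some group and 0 were called. Of these 2, *SNORA17* stood at 30.2 FPKM in *Atf4*-/- ASNase and at 0 elsewhere, so it entered no comparison. Only *Dusp23* could be called. Between 0.881 and 8.25% of all genes were called in the 7 comparisons, so 0 calls among these few neighbours is no result about them.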
